A study of Dunaliella viridis with 39 samples.

Results

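The results below concern prolonged nitrogen starvation in a green alga, Dunaliella viridis strain dumsii, which lives as single cells in brine: the cultures without added nitrogen at 51 h against the same cultures at 27 h. These are 6 of the 39 RNA libraries of the study, 3 per time, taken by their labels, and every locus with enough counts was compared, which was 17569 of 18495. Cells from an inoculum were suspended in medium with no added nitrogen, 5 mM L-glutamate, 5 mM L-glutamine or 5 mM nitrate, and each medium was sampled 3, 27 and 51 h after inoculation. All of these cultures were kept at 23.5 °C under constant cool white light (125 µmol photons per m2 and second), so no dark phase separates the times. Glutamate is described in the labels as an amino acid that the cells leave unused, and it served there as a second starved condition. Each replicate is a separate repeat of the whole experiment. Cultures were duplicated within a repeat, and whether a library holds one of them or both is not stated in the labels.

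Green algae that run out of nitrogen stop dividing, take apart nitrogen-rich proteins and pigments of the photosynthetic apparatus, and store carbon as starch and neutral lipid. Much of the change in their mRNAs comes early in starvation, as nitrogen uptake and recycling genes are switched on and genes for photosynthesis and growth are turned down. The interval from 27 to 51 h asks what continues to move after that switch. The deposited tables name loci by number and pair no gene names with them, so neither the identity of the cells nor any gene function could be checked by marker genes. A change in RNA per cell and a change in the number of cells cannot be told apart from these values, since each library is scaled to its own total.

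The 6 libraries differed in depth, in how many loci they covered and in how well they agreed. No nitrogen 51 h libraries held 3406918, 10481703 and 32256557 counts in replicates 1, 2 and 3, and no nitrogen 27 h libraries held 13934735, 12858078 and 8930941. Replicate 1 at 51 h had counts in 15777 loci and none in the other 2718, of which 11 were also at 0 in the other 5 libraries. Those 5, thinned to its total, would show 17526 to 18136 loci. The loci at 0 there were low elsewhere, with a median of 2.36 TPM (transcripts-per-million) against 6.602 TPM for all loci. Its log2 CPM (counts-per-million) correlated with the other 5 libraries at 0.835 to 0.888. Replicate 3 at 27 h correlated with the other 4 libraries at 0.932 to 0.942, and those 4 correlated with each other at 0.965 to 0.985, across both times. Both of these libraries therefore stood apart, and the results are given with and without them.

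**Figure D1:**
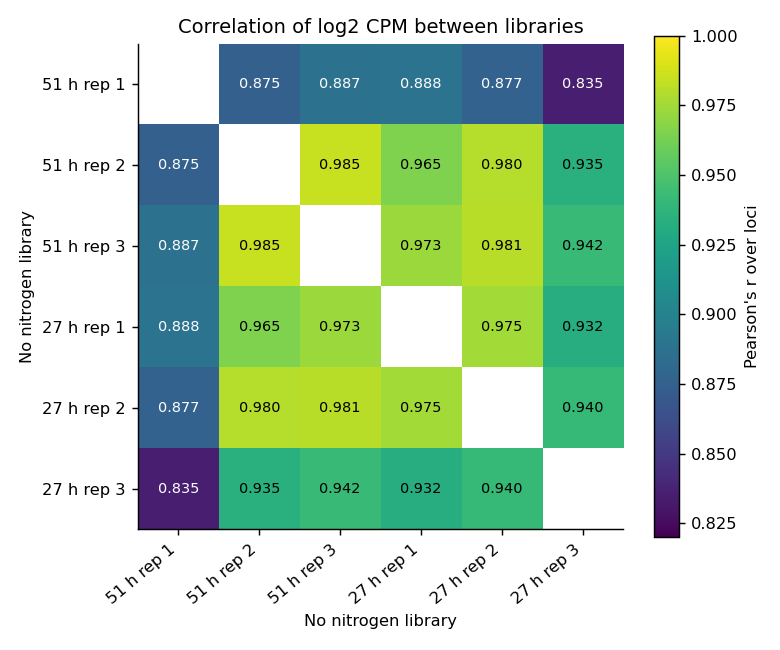
Pearson's r of log2 CPM over loci for each pair of the 6 no nitrogen libraries, with 51 h libraries first. Replicate 1 at 51 h has r of 0.835 to 0.888 with every other library, and replicate 3 at 27 h has 0.932 to 0.942 with the 4 that remain.

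Neither of the library-wide measures separated the times. At a common depth of 3342102 reads 17280 ± 1318 loci were detected at 51 h and 17795 ± 257 at 27 h (SD, n = 3 each), a difference of -515 (two-sided exact permutation p = 0.9, where 0.1 is the smallest possible). Without replicate 1 at 51 h the sign of that difference turned, to 244 more loci at 51 h. The 10 most abundant loci took 50.01% ± 8.39 of the counts at 51 h and 51.6% ± 6.72 at 27 h (SD, n = 3 each, two-sided exact permutation p = 0.8). A single locus, Locus_10041, was the most abundant in all 6 libraries and took 24.98%, 16.5% and 17.7% of the counts at 51 h against 26.9%, 21.7% and 19.8% at 27 h in replicates 1, 2 and 3. The share was thus lower at 51 h in all 3 pairs, and on TMM-scaled counts the log2 fold change of -0.15 ± 0.62 did not pass (SE, adjusted p = 0.972).

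Few loci passed the test between 27 and 51 h without nitrogen. At 51 h 94 loci, 0.535% of those tested, differed from 27 h at an adjusted p of 0.05 in edgeR's quasi-likelihood test. Of these 41 were higher, 0.233% of all loci, and 53 were lower, 0.302%. The 41 rose by 0.61 to 2.41 on the log2 scale with a median of 1.03, and the 53 changed by -0.57 to -1.85 with a median of -0.84. The change was at least 2-fold in 22 of the 41 and 15 of the 53. The median log2 fold change over all 17569 loci was 0.00. An unadjusted p under 0.05 was reached by 1956 loci, 11.1% of those tested. For 64.1% of the loci, 11253 in number, the 95% interval of the change lay within 2-fold in both directions, so a change of that size is outside the interval for those loci and not for the rest.

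The called loci moved in every repeat of the experiment. In CPM the 3 libraries of 51 h did not overlap the 3 of 27 h in 40 of the 41 that rose and in 52 of the 53 that fell, against 13.7% of all loci. All 41 and all 53 had the same direction within each of the 3 replicate pairs, against 31.6% of all loci with a direction shared by the 3 pairs. These counts describe loci that were selected for a consistent difference. The median log2 difference of the 41 was 0.998, 0.69 and 1.14 in pairs 1, 2 and 3, and that of the 53 was -0.89, -0.63 and -1.10. Pair 2, which holds neither of the libraries that stood apart, had the smallest median in both directions.

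Both libraries that stood apart were often at the extremes. Replicate 1 was the highest of the 51 h libraries in 29 of the 41 and the lowest in 31 of the 53. Replicate 3 was the lowest of the 27 h libraries in 30 of the 41 and the highest in 38 of the 53. In 6 of the 53 it was at least 2-fold above both other 27 h libraries. The shares over all loci are not given here, so nothing particular to the called loci can be read from these counts. One called locus, Locus_15007, was at 0 in replicate 1 at 51 h, with 1.24 and 1.94 CPM in replicates 2 and 3 at 51 h and 5.70, 6.09 and 3.06 CPM at 27 h. It is named for that zero, after its values were seen.

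**Figure D2:**
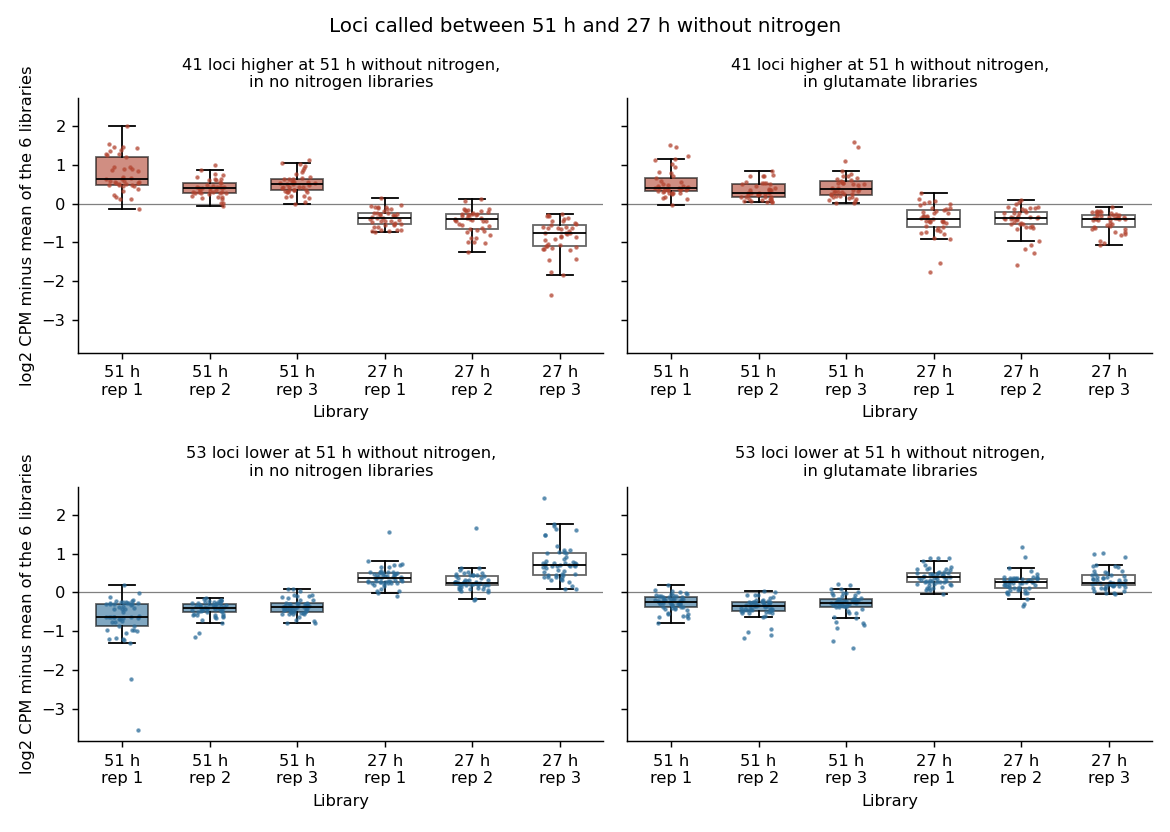
Log2 CPM of the 41 higher and 53 lower loci minus each locus's mean over 6 libraries of a medium, as points for loci and boxes for the median and quartiles, with 51 h filled and left of 27 h. In no nitrogen the median deviation of the 41 is 0.63, 0.39 and 0.50 in the 51 h libraries and -0.37, -0.41 and -0.76 in the 27 h ones, and in glutamate 0.40, 0.27 and 0.38 against -0.39, -0.37 and -0.38.

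The number of calls depended on single libraries. Without replicate 1 at 51 h 29 loci were called, 0.163% of the 17758 tested, 12 higher and 17 lower, and all 29 were among the 94. The medians without it were 0.87 for the 41 and -0.89 for the 53. Without replicate 3 at 27 h 15 loci were called, 5 higher and 10 lower, of which 14 were among the 94. The medians were then 0.87 and -0.73. A locus whose libraries do not overlap between the times keeps its direction when 1 is left out, so the direction of these loci says nothing further. There were 11 loci called in the fit of all libraries and in both of these fits, and without both libraries at once 3 higher and 8 lower loci were called. Without replicate 2 or 3 at 51 h the calls were 26 higher and 11 lower, or 19 and 19, and without replicate 1 or 2 at 27 h they were 36 and 81, or 43 and 139.

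Libraries with the same replicate number come from the same repeat and inoculum, and with this replicate block in the fit 97 higher and 124 lower loci were called, or 41 and 79 without replicate 1 at 51 h. The 6 libraries fitted alone, which take the spread from those libraries and no others, gave 1 higher and 0 lower, with 916 loci at an unadjusted p under 0.05. With limma on log2(TPM + 1) there were 3 higher loci and 0 lower, with 554 loci at an unadjusted p under 0.05, and on log2(TPM + 0.1) it gave 0, with 708. DESeq2 called 82 higher and 160 lower.

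The sequencing runs divide the comparison unevenly. Replicate 1 at 51 h and replicates 1 and 2 at 27 h were in run 1, and replicates 2 and 3 at 51 h and replicate 3 at 27 h were in run 2, so in each run a single library stands for one time and is assumed to vary like the other groups. Within run 1 47 higher and 75 lower loci were called, and within run 2 362 and 512. In each run that single library is one of the 2 that stood apart, so run and library cannot be told apart. Over 17423 loci the changes in run 1 and run 2 correlated at r = 0.05. Of the loci called in run 2, 232 of 361 higher and 344 of 500 lower loci tested in run 1 had the same direction there, against 43.4% and 56.6% of all loci, and 7 and 4 were called there. Of the loci called in run 1, 36 of 47 higher and 37 of 75 lower had the same direction in run 2, against 51.3% and 48.7% of all loci. The 41 and the 53, which were chosen on both runs together, had one direction in both, with median log2 changes of 1.04 and 1.10 for the 41 and -0.92 and -1.10 for the 53 in runs 1 and 2. With the run as a covariate 109 higher and 121 lower loci were called.

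Among the loci called with and without replicate 1 at 51 h, 10 higher and 14 lower reached a mean of 10 CPM with no overlap, and the largest changes are given here. Locus_11884 had 75.6, 63.3 and 69.7 CPM at 51 h in replicates 1, 2 and 3, against 19.4, 17.0 and 9.26 CPM at 27 h. Every 51 h library was thus more than 3-fold above every 27 h library, with replicate 3 the lowest at 27 h. The log2 fold change was 2.19 ± 0.22 (SE, adjusted p = 1.27e-07), a 4.55-fold rise. It was 2.11 without replicate 1 at 51 h, 1.93 without replicate 3 at 27 h and 1.86 without both, and passed the test in each.

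Locus_253 had 113, 63.8 and 86.4 CPM at 51 h against 29.1, 23.6 and 24.7 CPM at 27 h. The 27 h libraries lay close together and the 51 h ones spread over a wider range with no overlap. Its log2 fold change was 1.75 ± 0.29 (SE, adjusted p = 0.00176), or 3.37-fold. It passed without either library that stood apart, at 1.52 and 1.72, and did not pass without both, at 1.51.

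Both loci had averaged about 1 CPM at the first sampling. Locus_11884 averaged 1.11 ± 0.33, 15.2 ± 5.28 and 69.5 ± 6.16 CPM at 3, 27 and 51 h without nitrogen (SD, n = 3 each). Locus_253 averaged 0.96 ± 0.89, 25.8 ± 2.90 and 87.9 ± 24.9 CPM at the same times. The level at 27 h was thus already more than 10-fold that at 3 h for each, and the later step was smaller on a fold scale. No test was made of 27 h against 3 h, which shares its libraries with the comparison reported.

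The largest falls under the same rule had unlike histories. Locus_46, the called locus with the highest TPM, had 556, 652 and 688 CPM at 51 h against 1367, 1571 and 2061 CPM at 27 h. All 51 h libraries lay below all 27 h ones. Its log2 fold change was -1.40 ± 0.21 (SE, adjusted p = 0.000587), a level of 0.379 of that at 27 h. Its means at 3, 27 and 51 h were 923 ± 34.1, 1666 ± 357 and 632 ± 68.4 CPM (SD, n = 3 each), so it stood higher at 27 h than at 3 h before it fell. It passed without either library that stood apart, at -1.34 and -1.22, and did not pass without both, at -1.14.

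Locus_1670 had 9.13, 6.49 and 7.36 CPM at 51 h against 15.1, 11.4 and 19.4 CPM at 27 h. The groups did not overlap, and the lowest 27 h library was close to the highest 51 h one. Its log2 fold change was -1.06 ± 0.19 (SE, adjusted p = 0.00292), or 0.479 of the level at 27 h. Its means were 38.1 ± 5.68, 15.3 ± 4.01 and 7.66 ± 1.34 CPM at 3, 27 and 51 h (SD, n = 3 each), a lower level at each later time. It passed without replicate 1 at 51 h, at -1.15, and did not pass without replicate 3 at 27 h, at -0.86.

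**Figure D3:**
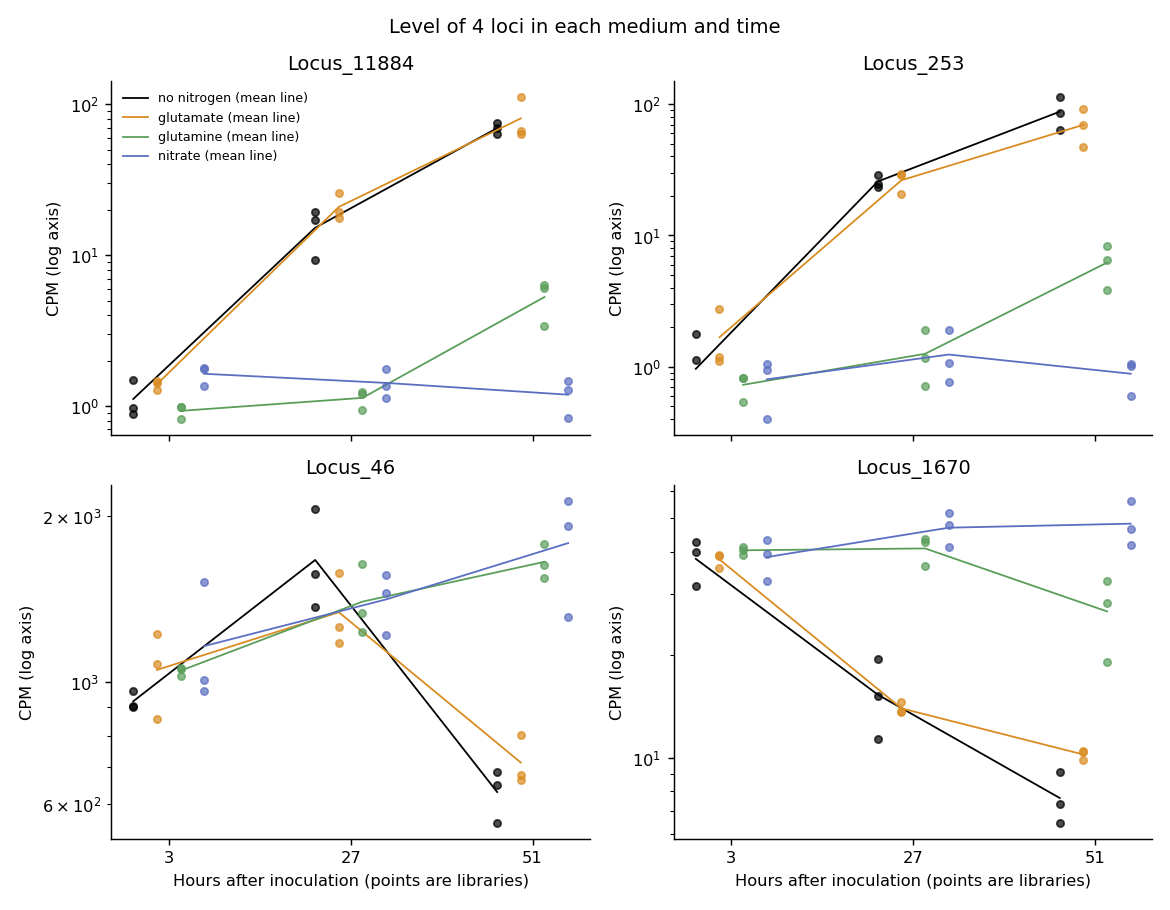
CPM on a log axis at 3, 27 and 51 h for the 2 largest rises (upper) and 2 largest falls (lower). The ranking is among loci called with and without replicate 1 at 51 h, at a mean of 10 CPM or more with no overlap. Each point is a library, and lines run through the means of 3. Without nitrogen Locus_11884 reaches a mean of 69.5 CPM and Locus_253 87.9 CPM at 51 h, close to the 80.6 and 69.7 CPM in glutamate, and nitrate stays at 1.19 and 0.88 CPM; the 3 h library of Locus_253 with 0 counts cannot be drawn.

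The cultures in glutamate, which share no library with those without nitrogen, showed the same directions. At 51 h against 27 h in glutamate all 41 loci were higher and all 53 were lower, where 51.5% and 48.5% of all loci were. Their median log2 fold changes there were 0.73 and -0.58. In glutamate 16 of the 41 and 9 of the 53 were called, against 42 loci called in all, 0.239% of those tested, 22 higher and 20 lower. Of those 22 and 20 glutamate loci, 16 (72.7%) and 9 (45.0%) were among the 41 and the 53, which is 39.0% and 17.0% of the no nitrogen lists. Each single pair of glutamate libraries showed the pattern, as 41, 41 and 41 of the 41 were higher and 53, 51 and 52 of the 53 were lower in pairs 1, 2 and 3. Over all 17569 loci the changes in no nitrogen and glutamate correlated at r = 0.37, and 64.5% had the same sign. Leaving out any 1 glutamate library kept at least 40 of the 41 higher and all 53 lower, while the calls among them were 9, 6 and 5 of the 41 without replicate 1, 2 or 3 at 51 h and 1, 1 and 9 without replicate 1, 2 or 3 at 27 h, and 6, 0 and 1, then 1, 0 and 7, of the 53. Repeats of the same number share an inoculum across media. The glutamate and nitrate libraries of 51 and 27 h were also divided between the 2 sequencing runs in the same way as those without nitrogen. Time and run are therefore partly mixed alike in these media, and the part of the run in the shared directions was not tested.

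The loci with the largest rises under that rule rose in glutamate too. Locus_11884 had 63.9, 66.3 and 112 CPM at 51 h in glutamate against 25.7, 17.8 and 19.2 CPM at 27 h, a log2 fold change of 1.95 ± 0.22 (SE, adjusted p = 1.98e-06). Locus_253 had 92.3, 70.0 and 46.9 CPM there against 29.6, 28.8 and 20.7 CPM, a change of 1.41 ± 0.29 (adjusted p = 0.0198). Locus_46 had 664, 677 and 802 CPM against 1262, 1176 and 1581 CPM, a change of -0.91 ± 0.21 (adjusted p = 0.043). In these 3 loci, and in Locus_1670, no glutamate library of 51 h overlapped one of 27 h in CPM. The share over all loci without overlap in glutamate is not given here. Locus_11884 passed without any 1 glutamate library, at 1.64 to 2.12. Locus_253 passed there only without replicate 3 at 51 h, at 1.63, and not without any other, at 1.16 to 1.503. Locus_46 did not pass without any 1 of the 6, at -0.769 to -0.99996. Locus_1670 had 10.5, 9.87 and 10.4 CPM against 13.7, 14.6 and 13.6 CPM in glutamate, a change of -0.44 ± 0.18 that did not pass (adjusted p = 0.424).

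No locus differed between the late changes of the starved cultures. In the test of the difference, no nitrogen minus glutamate, 0 loci were called (0%), with 400 at an unadjusted p under 0.05 and 0 called by DESeq2. This does not show that the changes were equal. For the 4 loci above the difference was 0.24 ± 0.30 in Locus_11884, 0.34 ± 0.40 in Locus_253, -0.49 ± 0.29 in Locus_46 and -0.62 ± 0.26 in Locus_1670 on the log2 scale (SE, adjusted p = 0.9996 for each). The glutamate count rests on single libraries more than that of no nitrogen. It was 27, 10 and 8 without replicate 1, 2 or 3 at 51 h, and 3, 2 and 47 without replicate 1, 2 or 3 at 27 h. With the replicate block it was 98, of which 47 were higher and 51 lower.

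**Figure D4:**
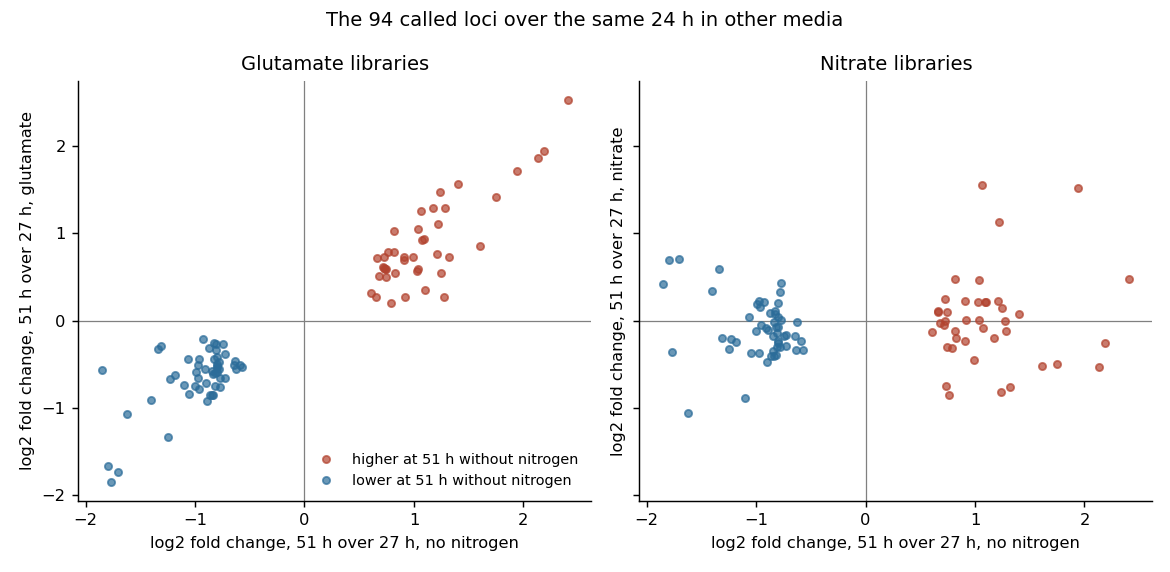
Log2 fold change of the 94 called loci from 27 to 51 h, without nitrogen on the x axis and in glutamate (left) or nitrate (right) on the y axis, with a point per locus. In glutamate all 41 higher loci lie above 0 and all 53 lower loci below it, and in nitrate 19 of the 41 lie above 0 and 35 of the 53 below it.

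Cultures fed nitrate shared few called loci with those without nitrogen over the same interval. In nitrate 68 loci were called at 51 h against 27 h, 0.387% of those tested, 63 higher and 5 lower. Of the 63, 38 were higher without nitrogen, and 1 (1.59%) was called higher there, against 0.233% of all loci. Of the 5, 1 was lower without nitrogen, with 0 called lower and 2 called higher there. Of the 41 higher loci of no nitrogen 19 were higher in nitrate, where 48.9% of all loci were, with a median of -0.01. In nitrate 1 of the 41 was called higher and 2 lower, against 0.359% and 0.028% of all loci. Of the 53 lower loci 35 were lower there, against 51.1% of all loci, with a median of -0.15 and 0 called, where 982 loci had an unadjusted p under 0.05 in nitrate. Locus_11884 had 0.839, 1.45 and 1.28 CPM at 51 h and 1.36, 1.14 and 1.77 CPM at 27 h in nitrate. Locus_46 had 1314, 2130 and 1919 CPM at 51 h and 1566, 1220 and 1453 CPM at 27 h. In both the nitrate libraries of the 2 times overlapped.

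The difference between the changes, no nitrogen minus nitrate, was called at 54 loci, 0.307% of those tested. It was positive at 13 loci and negative at 41, and was called at 80 with the replicate block. The difference contains the no nitrogen change itself, so calls in the 2 comparisons are not independent. Of the 13, 8 were called higher without nitrogen, against 0.233% of all loci. Of the 41, 7 were called lower without nitrogen, against 0.302%, while 31 were called higher in nitrate, against 0.359%. The negative differences therefore include 31 loci that rose in nitrate, and their median log2 change was -0.29 without nitrogen and 1.73 in nitrate over the 41.

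The loci named for this difference were also called without nitrogen, reached a mean of 10 CPM over the 4 groups and had no overlap between 51 h and 27 h. Locus_11884 had a difference of 2.44 ± 0.46 (SE, adjusted p = 0.00457), which did not pass without nitrate 27 h replicate 3, at 2.20. Locus_1353 had 143, 178 and 194 CPM at 51 h without nitrogen against 89.3, 116 and 99.7 CPM at 27 h, and in nitrate 15.9, 24.4 and 23.7 CPM against 36.1, 40.3 and 40.7 CPM. It rose in the starved culture by 0.76 ± 0.16 (adjusted p = 0.0183) and fell in nitrate by 0.86, and the difference was 1.62 ± 0.23 (adjusted p = 7.34e-05). In glutamate it also rose, with 170, 178 and 202 CPM at 51 h against 100, 104 and 115 CPM at 27 h and a log2 change of 0.79 ± 0.16 (adjusted p = 0.0204). The difference passed without any 1 library of either medium, at 1.44 to 1.73. The no nitrogen change alone did not pass without replicate 2 or 3 at 51 h or replicate 1 or 3 at 27 h, at 0.74, 0.66, 0.66 and 0.74, and the glutamate change did not pass without glutamate replicate 2 or 3 at 51 h or 1 or 2 at 27 h, at 0.81, 0.71, 0.74 and 0.77.

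Locus_13524 had 8.26, 6.35 and 7.59 CPM at 51 h without nitrogen against 19.4, 18.7 and 37.1 CPM at 27 h, and in nitrate 23.5, 22.9 and 20.7 CPM against 16.8, 10.8 and 13.6 CPM. Replicate 3 was the highest 27 h library without nitrogen by almost 2-fold. The difference of the changes was -2.48 ± 0.54 (SE, adjusted p = 0.0232). It did not pass without no nitrogen replicate 2 or 3 at 51 h or replicate 3 at 27 h, at -2.38, -2.54 and -2.12, nor without nitrate replicate 2 at 51 h or 2 or 3 at 27 h, at -2.46, -2.35 and -2.47. The change without nitrogen, -1.79 ± 0.39, did not pass without replicate 1, 2 or 3 at 51 h or replicate 3 at 27 h, at -1.86, -1.69, -1.85 and -1.40. In glutamine the change of Locus_13524 was -1.22 ± 0.38 (adjusted p = 0.0363), so its fall was not limited to the starved cultures. No nitrogen minus glutamine was -0.58 ± 0.54 (adjusted p = 0.68). In glutamate its change was -1.66 ± 0.40 and did not pass (adjusted p = 0.0665).

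Locus_4736 had 12.6, 20.2 and 16.8 CPM at 51 h without nitrogen against 24.5, 28.1 and 77.9 CPM at 27 h, where replicate 3 was again far above the others. Its change without nitrogen was -1.34 and became -0.62 without that library, with no call, and it also did not pass without replicate 1, 2 or 3 at 51 h, at -1.26, -1.501 and -1.32. In nitrate the locus had 28.9, 34.2 and 25.2 CPM at 51 h against 25.3, 19.5 and 14.2 CPM at 27 h. The difference from nitrate was -1.94 ± 0.43 (SE, adjusted p = 0.0269). It was -1.24 with no call without no nitrogen 27 h replicate 3, and did not pass without no nitrogen 51 h replicate 1 or 3, at -1.88 and -1.92, nor without nitrate 51 h replicate 2 or nitrate 27 h replicate 2 or 3, at -1.81, -1.93 and -1.73.

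In glutamine more loci moved over the same interval. There 1702 loci were called, 9.69% of those tested, 819 higher and 883 lower. Of the 41 higher loci of no nitrogen 33 were higher in glutamine, against 48.9% of all loci, with a median of 0.56. There 15 of the 41 were called higher, against 4.66% of all loci, and 2 lower. Of the 53 lower loci 23 were lower, against 51.1% of all loci, with a median of 0.10. There 9 of the 53 were called lower, against 5.03% of all loci, and 11 higher. The test of no nitrogen minus glutamine called 678 loci, 3.86% of those tested, 237 positive and 441 negative. It called 448 without glutamine 51 h replicate 3, and also 448 without glutamine 27 h replicate 3. Of the 237, 6 were called higher without nitrogen, against 0.233% of all loci, and 206 lower in glutamine, against 5.03%. Of the 441, 29 were called lower without nitrogen, against 0.302% of all loci, and 357 higher in glutamine, against 4.66%. This difference contains both changes, so these counts are not independent of it. Locus_11884 rose in glutamine by 2.22 ± 0.33 (SE, adjusted p = 9.03e-06), where its level at 51 h, 5.28 ± 1.64 CPM, was below that of the starved cultures at 27 h.

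The late changes were set beside an earlier difference measured in other libraries, glutamate against nitrate at 27 h. That comparison called 3380 loci higher (19.2%) and 3365 lower (19.2%). Of the 3380, 26 (0.77%) were called higher at 51 h than at 27 h without nitrogen and 16 (0.47%) were called lower. Of the 3365, 6 (0.18%) were called higher and 17 (0.51%) lower. Of the other 10824 loci 9 (0.08%) were called higher and 20 (0.18%) lower. The shares over all loci were 0.23% higher and 0.30% lower. The median log2 change without nitrogen was 0.11 over the 3380, -0.10 over the 3365 and 0.00 over the rest, and 63.4%, 35.9% and 49.6% of these loci had a positive change. Without replicate 1 at 51 h the medians of the 3380 and the 3365 were 0.13 and -0.16, and without replicate 3 at 27 h they were 0.15 and -0.11. In nitrate the median change from 27 to 51 h was 0.17 over the 3380 and -0.14 over the 3365. These had the same directions and were at least as large as without nitrogen. The nitrate libraries of 27 h also set the lists, which draws the nitrate values in these directions. Whether the shift is particular to the starved cultures therefore cannot be read from these values. The shift was small beside the difference that set the lists, whose median was 1.23 for the 3380 and -0.93 for the 3365.

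Among these 4 counts, that of 26 was 9 and 10 without replicate 1 or 3 at 51 h and 4 without replicate 3 at 27 h, and that of 17 was 3, 2 and 4 without replicate 1, 2 or 3 at 51 h, 49 without replicate 2 and 1 without replicate 3 at 27 h. The count of 16 was 8, 4 and 7 without replicate 1, 2 or 3 at 51 h and 4 without replicate 3 at 27 h. The count of 6 was 1, 1 and 2 without replicate 1, 2 or 3 at 51 h, 3 and 0 without replicate 1 or 3 at 27 h, and 2 to 3 without nitrate 27 h replicate 1, 2 or 3 or glutamate 27 h replicate 2 or 3, and that of 17 was 7 to 11 without glutamate 27 h replicate 2 or 3 or nitrate 27 h replicate 3. With the replicate block the 4 counts were 64, 26, 9 and 51 in place of 26, 16, 6 and 17.

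**Figure D5:**
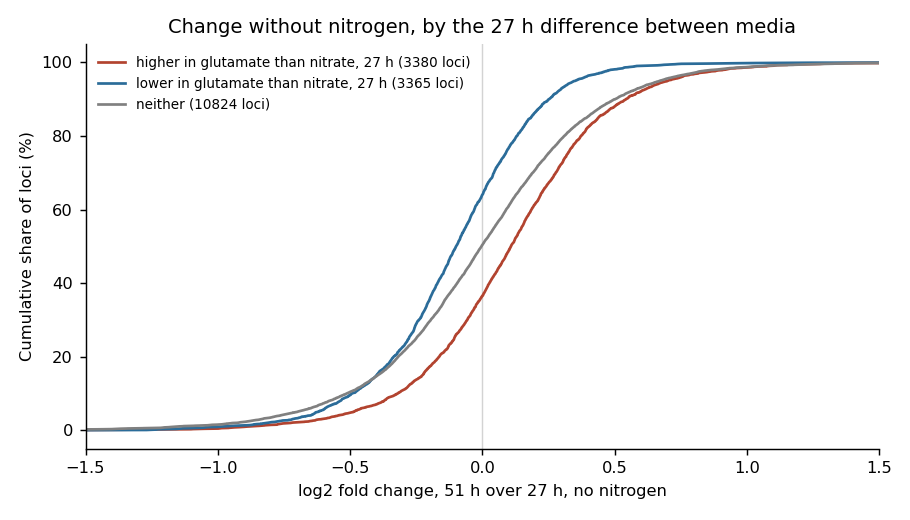
Cumulative share of loci (y axis, %) by log2 fold change from 27 to 51 h without nitrogen (x axis, drawn from -1.5 to 1.5), for loci higher, lower or neither in glutamate against nitrate at 27 h. The curves of the 3380 and the 3365 loci cross the middle at medians of 0.11 and -0.10, on either side of the 0.00 of the rest.

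Each combination of that difference and the later call held loci, and the largest change of each at a mean of at least 10 CPM with no overlap is described. Locus_13192, higher in glutamate than in nitrate at 27 h, was called higher at 51 h without nitrogen, with 56.1, 25.4 and 27.3 CPM at 51 h against 10.2, 6.81 and 2.61 CPM at 27 h. All 51 h libraries lay above all 27 h ones, and the log2 fold change was 2.41 ± 0.47 (SE, adjusted p = 0.0105). It was 2.00 without replicate 1 at 51 h and 2.03 without replicate 3 at 27 h, and passed in neither. In glutamate it rose by 2.53 ± 0.49 (adjusted p = 0.0136), with 27.7, 16.5 and 30.5 CPM at 51 h against 3.36, 4.07 and 5.10 CPM at 27 h, a change that did not pass without glutamate replicate 3 at 51 h or 1 or 2 at 27 h, at 2.35, 2.39 and 2.50.

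Locus_203, also higher in glutamate at 27 h, fell without nitrogen, with 129, 146 and 142 CPM at 51 h against 279, 277 and 341 CPM at 27 h and a log2 fold change of -1.10 ± 0.26 (SE, adjusted p = 0.0423). It did not pass without replicate 1, 2 or 3 at 51 h or replicate 3 at 27 h, where it was -1.08, -1.14, -1.11 and -0.996. At 51 h its level remained well above the 5.03, 3.13 and 6.80 CPM of nitrate at the same time. In nitrate its change was -0.89 ± 0.32 (adjusted p = 0.536) and in glutamate -0.74 ± 0.26 (adjusted p = 0.315), and neither passed. The difference, no nitrogen minus nitrate, was -0.21 ± 0.42 (adjusted p = 0.97), so its fall was not shown to be particular to no nitrogen. In glutamine it rose by 3.19 ± 0.29 (adjusted p = 3.76e-10), and the difference, no nitrogen minus glutamine, was -4.29 ± 0.39.

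Locus_1808, lower in glutamate than in nitrate at 27 h, rose to 35.6, 14.2 and 12.6 CPM at 51 h against 12.1, 9.25 and 5.93 CPM at 27 h. Replicate 1 at 51 h was more than 2-fold above every other library. The log2 fold change was 1.03 ± 0.25 (SE, adjusted p = 0.0419), and 0.54 with no call without that library. It also did not pass without replicate 2 or 3 at 27 h, at 1.04 and 0.80. Locus_4635, lower in glutamate at 27 h, had 21.7, 25.7 and 25.2 CPM at 51 h against 37.1, 31.4 and 115 CPM at 27 h, where replicate 3 was far above the other two. Its log2 fold change was -1.31 ± 0.30 (adjusted p = 0.0313), and -0.48 with no call without that library. Nor did it pass without replicate 1, 2 or 3 at 51 h, at -1.29, -1.35 and -1.34. At 27 h it averaged 61.1 ± 46.5 CPM without nitrogen and 64.2 ± 18.2 CPM in nitrate (SD, n = 3 each), a difference that was not tested.

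The called loci were more abundant than most. Their mean TPM, a level per length, over the 6 libraries had a median of 20.3 in the 41 and 27.5 in the 53, against 6.50 over all loci tested. In 4 equal classes of the loci by mean TPM over all 39 libraries, from low to high, 3, 7, 21 and 63 were called, and the median standard error of the log2 change was 0.44, 0.30, 0.23 and 0.20. More loci were thus called where the standard error was smaller, and its part in the counts was not tested. In 4 equal classes by relative length, from short to long, 14, 15, 37 and 28 were called, with median standard errors of 0.44, 0.31, 0.24 and 0.20.

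The most abundant called loci show changes of moderate size. Locus_15068, the higher locus with the highest TPM, had 202, 296 and 277 CPM at 51 h against 118, 181 and 78.3 CPM at 27 h, a log2 fold change of 1.04 ± 0.24 (SE, adjusted p = 0.0313) that did not pass without replicate 2 or 3 at 51 h or 1 or 3 at 27 h, at 0.93, 0.99, 0.98 and 0.79. Locus_8944 had 159, 188 and 198 CPM against 119, 117 and 97.1 CPM, a change of 0.72 ± 0.14 (adjusted p = 0.0106). Locus_1192 had 241, 216 and 213 CPM against 381, 398 and 386 CPM, a change of -0.80 ± 0.17 (adjusted p = 0.0149). In these 3 loci the CPM of a time lay apart from those of the other time, as in 13.7% of all loci. Their TPM overlapped between the times. Locus_15068 had 162, 514 and 410 TPM at 51 h against 109, 252 and 126 at 27 h. Locus_8944 had 169, 344 and 305 TPM against 115, 171 and 178. Locus_1192 had 150, 289 and 243 TPM against 271, 428 and 479. In glutamate the changes were 1.05 ± 0.24 (adjusted p = 0.0395), 0.61 ± 0.14 (adjusted p = 0.0507) and -0.52 ± 0.16 (adjusted p = 0.225), so the first passed there and the others did not. Without no nitrogen replicate 2 or 3 at 51 h or 3 at 27 h neither Locus_8944, at 0.69, 0.65 and 0.63, nor Locus_1192, at -0.78, -0.77 and -0.80, passed. The glutamate change of Locus_15068 passed without glutamate 51 h replicate 1 or 27 h replicate 3, at 1.16 and 1.22, and not without the other 4, at 0.88 to 1.06.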

How the data were processed

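Per the labels' protocols, libraries that keep the strand were made from total RNA depleted of ribosomal RNA and read from one end (125 bp) in 2 sequencing runs. The authors deposited whole-number read counts and TPM values per locus and library. FastQC, RSEM, STAR and edgeR 3.4.0 appear in the submitters' processing notes. The sources used here do not give the genome build, annotation, strand setting or filters, and reads shared by near-identical or overlapping loci cannot be judged. All columns matched a sample title (0 were left over).

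The counts were fitted with edgeR 4.0.16 (R 4.3.3): all 39 libraries, a mean for each of 13 groups, filterByExpr (17569 of 18495 loci kept, 926 removed with 0.0235% of counts), TMM scaling, quasi-likelihood tests and Benjamini-Hochberg adjustment over all loci at 0.05. Differences of changes were contrasts in that fit. Standard errors come from the fold change and F value. CPM are on TMM-scaled libraries, with a prior count of 2 for log2 values. Relative length is the ratio of counts to TPM, scaled per library. Total counts ranged from 3342102 to 41114965, and thinning to a common depth was computed, not drawn. Within the 6 libraries no pair agreed to within sampling noise (lowest chi-square per degree of freedom 11.9).

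The replicate numbers pair the libraries, because the labels give each repeat its own inoculum. Deviations from the group means correlated at 0.24, 0.13 and 0.14 between same-numbered libraries of 51 and 27 h. Between libraries of different number these correlations were -0.25 to 0.10. The fit without the block is the one reported first.

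Alternatives were RLE size factors, no filter, DESeq2 1.42.0, the replicate block, run as a covariate, the compared groups alone, limma 3.58.1 on log2(TPM + 1) or log2(TPM + 0.1), fits within a run and leaving out libraries. Fits were tested on simulated counts. The comparison, lists and libraries to leave out were chosen with earlier results of these data known. Leaving out 2 libraries together, and 2 choices combined, were added after the data were seen. Loci were named by rule: the 2 largest changes each way among loci called with and without replicate 1 at 51 h, with a mean of at least 10 CPM and no overlap; the 2 each way for the difference from nitrate, at a mean of at least 10 CPM over the 4 groups and called the same way without nitrogen; the largest change in each combination of earlier list and call, at a mean of at least 10 CPM and no overlap; and the 2 called loci each way with the highest TPM. Gene lists for nitrogen, photosynthesis and lipid metabolism could not be matched to IDs and were not used.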

Additional observations from a re-analysis of the deposited data

Results flagged for a closer look

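The change from 27 to 51 h differed between no nitrogen and nitrate at 54 loci in the test of the difference itself, and between no nitrogen and glutamine at 678 loci. Among the loci named for the first difference, no nitrogen minus nitrate on the log2 scale was 2.44 at Locus_11884 and 1.62 at Locus_1353, and it was -2.48 at Locus_13524 and -1.94 at Locus_4736. Locus_11884 rose without nitrogen and did not pass in nitrate, Locus_1353 rose without nitrogen and fell in nitrate, and Locus_13524 and Locus_4736 fell without nitrogen and did not pass in nitrate. At Locus_13524 and Locus_4736 replicate 3 at 27 h without nitrogen was the highest of its group. The difference at Locus_11884 lost its call only without nitrate 27 h replicate 3, and that at Locus_1353 kept it without any 1 library of either medium. Those at Locus_13524 and Locus_4736 lost theirs without any of several libraries, among them no nitrogen 27 h replicate 3. Without that library the no nitrogen changes of Locus_13524, Locus_4736 and Locus_1353 did not pass either, at -1.40, -0.62 and 0.74.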

How the results depend on the processing

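Over the 14 named loci and 280 alternative values the call was kept in 168 and lost in 112, and 0 were reversed, which the choice of loci without overlap largely fixes. The counts of calls moved, and the cause was not tested beyond what each setting's construction shows (fewer libraries or another estimate of the spread). For no nitrogen 51 h against 27 h, 41 higher and 53 lower became 82 and 160 with DESeq2, 97 and 124 with the replicate block, 109 and 121 with run as a covariate, 1 and 0 with the compared groups alone, 3 and 0 with limma on log2(TPM + 1), 0 and 0 on log2(TPM + 0.1), 22 and 28 without 3 libraries of the whole series (no nitrogen 51 h replicate 1, glutamate 51 h replicate 3 and nitrate 3 h replicate 2), and 362 and 512 within run 2. Without replicate 1 at 51 h they were 13 and 25 with RLE, and without that library and no nitrogen 27 h replicate 3 they were 3 and 8. Leaving out 1 library gave 5 to 43 higher and 10 to 139 lower. The 42 glutamate calls became 132 with DESeq2, 98 with the replicate block, 7 alone, 8 and 0 with limma, 17 without those 3 libraries of the series, 130 with the block and without no nitrogen 51 h replicate 1, 75 without both no nitrogen libraries, and 2 to 47 without 1 library. The 68 nitrate calls became 13 and 12 with limma and 107 with the block and without no nitrogen 51 h replicate 1, and 46 to 78 without 1 library. The difference from nitrate, 54 loci, became 88 with DESeq2, 35 alone, 5 and 3 with limma, and 36 to 61 without 1 library. The difference from glutamine, 678, became 431 alone, 23 and 23 with limma, and 448 to 735 without 1 library. The difference from glutamate stayed at 0 in every fit. Of the loci higher in glutamate than nitrate at 27 h, 26 called higher and 16 lower became 49 and 33 with DESeq2, 64 and 26 with the replicate block, 68 and 25 with run, 1 and 0 alone, 2 and 0 or 0 and 0 with limma, 16 and 7 without those 3, 4 to 26 and 4 to 24 without 1 library, 10 and 9 with RLE and without 51 h replicate 1, and 2 and 4 without both libraries. Of the loci lower there, 6 called higher and 17 lower became 66 lower with DESeq2, 51 lower with the block, 41 lower with run, 0 and 0 alone and with limma, 1 and 11 without those 3, 0 to 5 and 1 to 49 without 1 library, 1 and 34 with the block and without 51 h replicate 1, 1 and 7 with RLE and without it, and 0 and 2 without both. The difference in loci at a common depth, 51 h minus 27 h, ranged from -939 to 244 without 1 library, with the positive value without 51 h replicate 1, and that in the share of the 10 most abundant loci from -6.27 to 1.89 percentage points, positive without 51 h replicate 2 or 27 h replicate 1 (1.85 and 1.89); as a share of TPM it was 0.385. On the log2(TPM + 1) scale the median change of all loci was 0.50 in glutamate, and that of no nitrogen minus nitrate, glutamate and glutamine was -0.23, -0.52 and 0.27, against values within 0.02 of 0 in edgeR; within run 1 the median change without nitrogen was -0.13.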
